A study of Homo sapiens with 31 samples.

Results

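The transcribed regions described here are the rows of an expression table of human H460 cells that carry coordinates but no gene symbol. They were chosen by level: a row was taken if its symbol was missing, if it did not lie on the mitochondrial chromosome or the Y chromosome, and if its mean over the 31 libraries was at least 50 normalized reads. This gave 921 rows of 51656 without a symbol and of 74834 in all. They are called unnamed rows below. The mean over all libraries chose them, so their levels are a description. A row that is low in most groups can have passed the limit through the group where it is high. The rise of such a row in that group is a description too, and its p-value does not allow for the choice. This can hold for any row named below whose levels in Control were under 50.

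H460 is a non-small cell lung carcinoma line. Its poly(A) RNA was sequenced 6 h after treatment in 8 groups of 4 libraries, except 3 for Nutlin-3, with the cells of 2 wells joined in each sample. The groups were untreated cells (Control), BAY87-2243 at 1 µM (B87), dimethyl α-ketoglutarate at 5 mM (DMKG), B87 with DMKG (B87 + DMKG), Nutlin-3 at 30 µM, Rita at 50 µM, B87 + DMKG + Nutlin-3, and B87 + DMKG + Rita, all agents at the same doses in the combinations. B87 inhibits complex I of the respiratory chain. DMKG is a cell-permeable form of α-ketoglutarate, a metabolite of the tricarboxylic acid cycle and a cosubstrate of many dioxygenases. Nutlin-3 blocks the binding of MDM2 to p53, and Rita is a compound reported to bind p53. The whole study is 1 cell line, and the labels do not say that the samples of a group came from separate cultures, so the p-values speak only to the spread among these libraries, part or all of which can be technical.

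RNA polymerase II transcribes far more of the genome than the annotated exons. Transcripts run on past the poly(A) site until cleavage and the exonuclease XRN2 end them, introns are kept in some nuclear RNA, and many promoters fire in both directions and give short-lived upstream RNAs. The Integrator complex and the nuclear exosome, which is guided by adaptor complexes named NEXT and PAXT, remove most of these RNAs. A row without a name can therefore be the tail of a gene, a piece of its intron, an upstream transcript, an RNA of its own, a pseudogene or a gene whose name the table lacks.

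The sequences that bear on the named results are a promoter of the only unnamed row called with B87 alone and the promoters of 2 genes whose upstream rows fell, together with the mature microRNA whose host locus an unnamed row overlaps. The promoters run from 250 bases before to 50 bases after the RefSeq start on GRCh38.p14. They are written 5′ to 3′ on the strand of the gene. Capitals mark TGCGCA in ALAS1 and GGGCGG in CDPF1 and FBXW2, and in the microRNA the seed, bases 2 to 8.
ALAS1 promoter, chr3:52197833-52198132, plus strand: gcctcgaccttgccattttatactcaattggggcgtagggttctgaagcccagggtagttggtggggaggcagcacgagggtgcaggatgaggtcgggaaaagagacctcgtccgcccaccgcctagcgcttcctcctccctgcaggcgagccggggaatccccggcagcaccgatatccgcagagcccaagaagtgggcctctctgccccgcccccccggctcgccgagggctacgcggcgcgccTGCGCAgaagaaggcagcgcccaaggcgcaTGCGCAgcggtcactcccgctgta
CDPF1 promoter, chr22:46250244-46250543, minus strand: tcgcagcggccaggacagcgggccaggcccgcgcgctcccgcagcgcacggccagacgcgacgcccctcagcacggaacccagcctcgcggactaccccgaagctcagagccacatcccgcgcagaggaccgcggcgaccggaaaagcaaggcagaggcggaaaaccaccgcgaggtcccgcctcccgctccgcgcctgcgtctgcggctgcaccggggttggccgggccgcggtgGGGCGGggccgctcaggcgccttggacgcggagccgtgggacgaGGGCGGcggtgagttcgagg
FBXW2 promoter, chr9:120793367-120793666, minus strand: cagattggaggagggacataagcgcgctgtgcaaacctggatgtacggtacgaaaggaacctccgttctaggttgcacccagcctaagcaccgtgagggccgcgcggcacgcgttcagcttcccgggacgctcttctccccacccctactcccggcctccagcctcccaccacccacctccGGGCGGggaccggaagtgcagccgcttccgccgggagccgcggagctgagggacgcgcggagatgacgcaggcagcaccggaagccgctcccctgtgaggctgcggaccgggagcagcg
hsa-miR-34a-5p, chr1:9151735-9151756, minus strand: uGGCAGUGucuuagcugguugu
Both strands were searched. TGCGCA, which reads the same on either strand and is part of the motif of NRF1, a regulator of genes for mitochondrial proteins, matched at bases 247 to 252 and 277 to 282 of the ALAS1 promoter. GGGCGG, the core of the Sp1 motif, matched on the plus strand at bases 237 to 242 and 281 to 286 for CDPF1 and at bases 182 to 187 for FBXW2, and on the minus strand at bases 113 to 118 and 210 to 215 for ALAS1, which are not in capitals. CCAAT, the CCAAT box, matched on the minus strand at bases 27 to 31 for ALAS1 and 4 to 8 for FBXW2. Of 35116 RefSeq promoters of this length 8.24% hold TGCGCA, 45% hold GGGCGG and 34.6% hold CCAAT. A match describes the letters only. These positions are on GRCh38.p14, whereas all positions of rows below are on hg19, the build in the header of the table, and none was converted.

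The unnamed rows had a median span of 2784 bases from start to end (quartiles 1880 and 5714), from 21 to 740979. Their mean levels had a median of 127 normalized reads, with 362 rows between 50 and 100 and 80 at 1000 or more. In Control 784 had a mean of at least 50, 552 had it in each of the 8 groups, and 13 were at 0 in some library. The largest numbers were on chromosomes 1 (88) and 2 (85). At the limit of the choice GSHG0020380 and GSHG0140149 (50.11 each) and GSHG0018387 (50.32) were just inside, and GSHG0030322 (49.97), GSHG0144450 (49.85) and GSHG0134343 (49.77) just outside.

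Most unnamed rows lay at genes. Rows that hold only small RNA genes, such as microRNAs and small nucleolar RNAs, were not used as gene rows for these positions. By coordinates 319 (34.6%) were inside the span of a gene row, 132 ran partly over one, 15 spanned a whole gene row, 158 lay within 5 kb past the 3′ end of a gene and 77 within 5 kb before its 5′ end. A further 193 were farther than 5 kb from any gene row so defined, though a small RNA row can lie closer. On sequences without such a gene row lay 21, and for 6 the strand of the gene was not known. Overlap or a distance of at most 5 kb held for 707 in all, against 584 with 1 kb and 783 with 20 kb. Whether the counting used the strand is not given in the sources used here, so reads of an unnamed row and of a gene that it overlaps, on either strand, cannot be told apart.

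The word unannotated did not hold for all of them. Of the unnamed rows 9 carried a gene ID although the symbol field was empty, which RefSeq pairs with ALAS1, RTCA, OAS1, OAS3, NT5DC3, NT5M, CNP, NT5C and REXO4. These are the only rows of the table with a gene ID and no symbol. The full name of each of these genes holds a prime mark, as do the descriptions of 39 rows that kept their symbol. A further 28 lay on alternative haplotypes or unplaced sequences, 19 of them on haplotypes of the major histocompatibility complex, where reads can be shared with the main copy. The second highest row by level, GSHG0053978 (chr19:12754092-12754733), had a mean of 26362 and lay 2589 bases past MAN2B1, where RefSeq lists the ribosomal protein pseudogene RPL10P16. Such levels rise with the length of a row and with reads shared between copies, and they were not corrected for either.

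The third was a row of 67 bases inside TAOK3 (GSHG0122891, mean 11567), with another of 61 bases beside it (GSHG0038590, 6202). The fourth, GSHG0134520, lies partly over BCAN and had a mean of 8773. The remaining rows among the 10 highest had means from 5139 to 8011: GSHG0002233 before HS2ST1, GSHG0020347 inside RBFOX2, GSHG0030540 near GTF3C5, GSHG0140658 past COL8A1 and GSHG0021248 before SERP1. EEF1A1P5, a pseudogene of a translation elongation factor, is among the RefSeq neighbours of GTF3C5 on the side of that row.

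The deposited values were whole multiples of 1 step per library and gave 33.4 M to 82.5 M units per library, called reads here, although 55.8% to 59.2% of the row counts above 0 and below 1000 were even and whether reads or pairs were counted is not given in the sources used here. Of 6 epithelial markers KRT8, KRT18, KRT19 and CLDN1 had Control means of 97329, 67024, 96078 and 3589 normalized reads, whereas EPCAM was at 47.5 and CDH1, the gene of E-cadherin, at 2.21, too low to be tested. Of 7 leukocyte markers 1 was high enough to be tested, of 6 endothelial markers 1 and of 7 fibroblast markers 5, and CD3E, CD74, PECAM1, CDH5 and TEK were at 0 in Control. The summed leukocyte list was at 210.1 to 261.1 normalized reads in Control and 67.1 to 120.1 in B87 + DMKG, the endothelial list at 10.7 to 23.5 and 37.3 to 66, and the fibroblast list at 1324 to 1456 and 1417 to 1595. Their part in the results was not tested. The DMKG libraries fell into pairs. MALAT1, a nuclear long noncoding RNA, was at 2330.1, 1699.7, 6272 and 10531 normalized reads in DMKG libraries 1 to 4, against 857 to 1628 in Control and 15214 to 23333 in B87 + DMKG. The median of unnamed rows inside gene spans, relative to the Control mean, was -0.171 and -0.166 in DMKG libraries 1 and 2 and 0.0337 and 0.148 in libraries 3 and 4 (log2 scale). Counts for DMKG are therefore also given without each pair. Each unnamed row whose own change with DMKG against Control is given below with its standard error kept its direction and its call without either pair. This does not cover rows for which only the DMKG levels are printed. The share of values on the mitochondrial chromosome was 1.49% to 2.15% in Control, 2.24% to 7.51% in B87 + DMKG and 2.42% to 5.39% in Nutlin-3, and its part in the results was not tested. In these bulk samples fewer transcribing cells and less RNA per cell cannot be told apart, and no added standard RNA is named.

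The first comparison asked what complex I inhibition alone did. Only 1 unnamed row was called with B87 (limma on log2 of the value + 1, adjusted p under 0.05 over 16259 rows), and that is the row with the gene ID of ALAS1, the first enzyme of haem synthesis, which works in mitochondria. Of all rows tested 0.0431% were called, 7 in number, 0.0308% higher and 0.0123% lower. A gap between the B87 and Control groups, with no overlap, was found for 7.09% of all rows tested. GSHG0020845 (chr3:52232099-52248343) had 2849.7, 2773, 2812 and 2674 normalized reads in Control and 3568, 3687, 3815 and 3845 in B87. The groups did not overlap, and B87 was higher by 0.42 ± 0.06 (limma adjusted p = 0.00029) on the log2 scale. The row was also higher with DMKG (3790.2, 3913, 3731 and 3689.9; 0.45 ± 0.06), with Rita (4580.4, 4705, 4845 and 4662; 0.76 ± 0.06) and with B87 + DMKG + Rita (5052, 5093, 4872 and 5152; 0.86 ± 0.06), all relative to the same Control libraries. With Nutlin-3 it was at 2632, 2825 and 2636, a difference of -0.04 ± 0.06 (limma adjusted p = 0.61). At an unadjusted p under 0.05 there were 54 unnamed rows and 904 of all rows, and edgeR and DESeq2 on whole reads also called 1 unnamed row each.

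Of the other 8 rows with a gene ID none was called with B87, 2 rose and 1 fell with DMKG, 5 rose and 1 fell with B87 + DMKG, 2 rose and 3 fell with Nutlin-3, 3 rose and 2 fell with Rita, 6 rose and 2 fell with B87 + DMKG + Nutlin-3, and 4 rose and 1 fell with B87 + DMKG + Rita. In the same order 0.0431%, 41.4%, 61.0%, 39.1%, 52.1%, 58.0% and 60.1% of all rows tested were called. Whether the 8 rows differ from these shares was not tested. OAS1 and OAS3 encode interferon-induced sensors of double-stranded RNA. The OAS1 row (GSHG0007017, chr12:113344582-113369995) was at 5091, 5302, 4763 and 4731 normalized reads in Control, 4525, 4101 and 3806 in Nutlin-3 and 6104, 5886, 6573 and 5775 in B87 + DMKG + Nutlin-3, with differences of -0.26 ± 0.07 (limma adjusted p = 0.0019) and 0.29 ± 0.06 (limma adjusted p = 0.00016). The OAS3 row (GSHG0007018, chr12:113376157-113411052) was at 3048, 2561, 2911 and 3110.3, 2213, 2184 and 1945 and 3302, 4115, 3654 and 4299.8 in the same groups, with differences of -0.46 ± 0.10 (limma adjusted p = 0.00058) and 0.40 ± 0.09 (limma adjusted p = 0.00058). Both rows thus fell with Nutlin-3 alone and rose with the combination, each against the same Control libraries. With the same total in every library the rises were 0.13 (limma adjusted p = 0.084) and 0.24 (limma adjusted p = 0.063) and were no longer called. REXO4, the gene of a predicted exonuclease (GSHG0031241, chr9:136271182-136283292), was at 2907, 3225, 3077 and 3069.8 in Control and 1555, 1642, 1498 and 1701 in B87 + DMKG + Rita, below it in every library as 63.9% of all rows tested were apart in either direction (-0.94 ± 0.09, limma adjusted p = 1.2e-10). CNP, the gene of a cyclic nucleotide phosphodiesterase of myelin (GSHG0012499, chr17:40118759-40129754), was at 1995, 1899 and 1928 in Nutlin-3 and 4265, 4142, 4004 and 3892 in Rita against 2757, 2773, 3166 and 2824 in Control (-0.57 ± 0.08 and 0.50 ± 0.07). The nucleotidase row of NT5C (GSHG0013721) differed by 0.78 ± 0.14 (limma adjusted p = 2.1e-05) in B87 + DMKG + Nutlin-3, and that of NT5M (GSHG0012265) by 0.60 ± 0.12 (limma adjusted p = 0.00011) in B87 + DMKG + Rita.

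With DMKG alone more unnamed rows fell than rose. Called were 142 higher and 257 lower, 43.3% of the 921 against 41.4% of all rows tested, of which 19.6% were higher and 21.8% lower. Their median was -0.0656 on the log2 scale against 0.0272 for all rows. All rows tested include those at means of 10 to 50. Of the 11911 rows with a symbol at a mean of at least 50, 46.4% were called, 21.9% higher and 24.5% lower. Falls outnumbered rises in every class of at least 77 rows. Past the 3′ end 11 rose and 51 fell of 158 (median -0.208), and before the 5′ end 11 rose and 27 fell of 77 (-0.21). Among rows partly over a gene 15 rose and 51 fell of 132 (-0.287). Inside spans 59 rose and 78 fell of 319 (-0.0208), and farther than 5 kb 31 rose and 41 fell of 193 (0.0473). On sequences without a gene row 10 rose and 5 fell of 21 (0.474), and of 15 rows around a gene span 4 rose and 3 fell (0.254). The differences between these classes were not tested. Without DMKG libraries 1 and 2 the counts were 191 higher and 240 lower, and without libraries 3 and 4 they were 71 higher and 230 lower. Of the calls 44.3% were higher in the first case and 23.6% in the second, against 35.6% with all libraries.

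The fourth of the unnamed rows by level, GSHG0134520 (chr1:156611457-156614679), partly overlaps BCAN, the gene of the brain proteoglycan brevican. It had 11332, 11641, 8793 and 11309 normalized reads in Control and 2162, 2022, 1577 and 1899 in DMKG. Every DMKG library was below every Control library (39.6% of all rows tested had DMKG and Control without overlap), a difference of -2.49 ± 0.09 (limma adjusted p = 1.4e-19) on the log2 scale. In B87 + DMKG the row was at 14720.2, 16558, 15383 and 14448, above Control by 0.51 ± 0.09 (limma adjusted p = 1.3e-05). The level with both agents exceeded the sum of the single effects by 3.14 ± 0.13 (limma adjusted p = 1.1e-17). Nutlin-3 gave 17961, 17553 and 19559, the highest group, and Rita 6597, 6349, 6586 and 7719.7, below Control, and neither overlapped with Control.

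Other falls with DMKG were beside or over genes. GSHG0044630 (chr9:123555775-123561009), 35 bases before FBXW2, the gene of a substrate adaptor of a ubiquitin ligase, was at 131, 115, 94.3 and 117 in Control and 25.1, 23.4, 10.2 and 7.2 in DMKG, groups that did not overlap. The difference was -2.88 ± 0.34 (limma adjusted p = 5.3e-08), while FBXW2 itself differed by 0.01 ± 0.08 (limma adjusted p = 0.96) and was not called. The FBXW2 promoter printed above covers the start next to this row, and the gene after FBXW2 on that side in RefSeq is B3GALT9. GSHG0133647 (chr5:43014523-43067541), which spans ANXA2R, was at 481, 417, 418 and 439.6 in Control and 51.5, 91, 51.2 and 31.7 in DMKG, a difference of -3.03 ± 0.20 (limma adjusted p = 2.1e-13) without overlap. GSHG0039676 (chr19:10444112-10446923), partly over the adhesion receptor gene ICAM3, differed by -3.13 ± 0.25 (limma adjusted p = 2.6e-11).

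Among called rows whose groups did not overlap, the largest rise with DMKG was inside HSP90B1, the gene of the endoplasmic reticulum chaperone GRP94. GSHG0006950 (chr12:104328879-104330400) had 7.48, 9.59, 7.16 and 7.66 normalized reads in Control and 181, 194, 297 and 448 in DMKG, without overlap, and was higher by 4.88 ± 0.35 (limma adjusted p = 1.9e-12). In B87 + DMKG it had 313, 492, 316 and 279 (5.26 ± 0.35, limma adjusted p = 1.5e-13). The row can have passed the level limit through groups where it is high, and its p-values do not allow for that. A row inside TAF9B, a subunit gene of transcription factor complexes (GSHG0031639, chrX:77385758-77387872), was at 122, 84.2, 95.5 and 106 in Control, 539, 539, 788 and 1277 in DMKG and 77.2, 96, 154 and 135 in B87 + DMKG. It rose with DMKG by 2.85 ± 0.23 (limma adjusted p = 2.1e-11) and was not called in B87 + DMKG (0.14 ± 0.23, limma adjusted p = 0.6), a departure from additivity of -3.09 ± 0.32 (limma adjusted p = 4.9e-09). A row inside BAIAP2L1 (GSHG0027544) had 104, 117, 104 and 105 in DMKG against 11.8, 14.9, 7.16 and 24.1 in Control (2.92 ± 0.28, limma adjusted p = 6.1e-10), with DMKG library 2 apart from the other 3.

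With B87 + DMKG more unnamed rows rose than fell. Called were 446 higher and 158 lower, together 65.6% against 61.0% of all rows tested, but 48.4% were higher against 30.2% of all rows and 17.2% were lower against 30.8%. The median was 0.376 on the log2 scale against 0.00452 for all rows and -0.0493 for the 13843 rows with a symbol, of which 3841 rose and 4711 fell. Of the rows with a symbol at a mean of at least 50, 65.6% were called, the same share as of the unnamed rows, but with 27.8% higher and 37.8% lower. Rows without a symbol at mean levels of 10 to 50, which the choice left out, had 621 higher and 128 lower of 1474 and a median of 0.746. Chosen by the libraries outside the comparison only, 864 rows had 390 higher and 158 lower with a median of 0.303. The share of all values held by the unnamed rows was 0.902% to 0.935% in the 4 libraries and 0.768% to 0.784% in Control, ranges that do not overlap. With quantile normalization the counts were 371 higher and 231 lower, so the share of rises among the calls was 61.6% in place of 73.8%. Of all 16259 rows tested 4634 were then higher and 5225 lower.

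**Figure D1:**
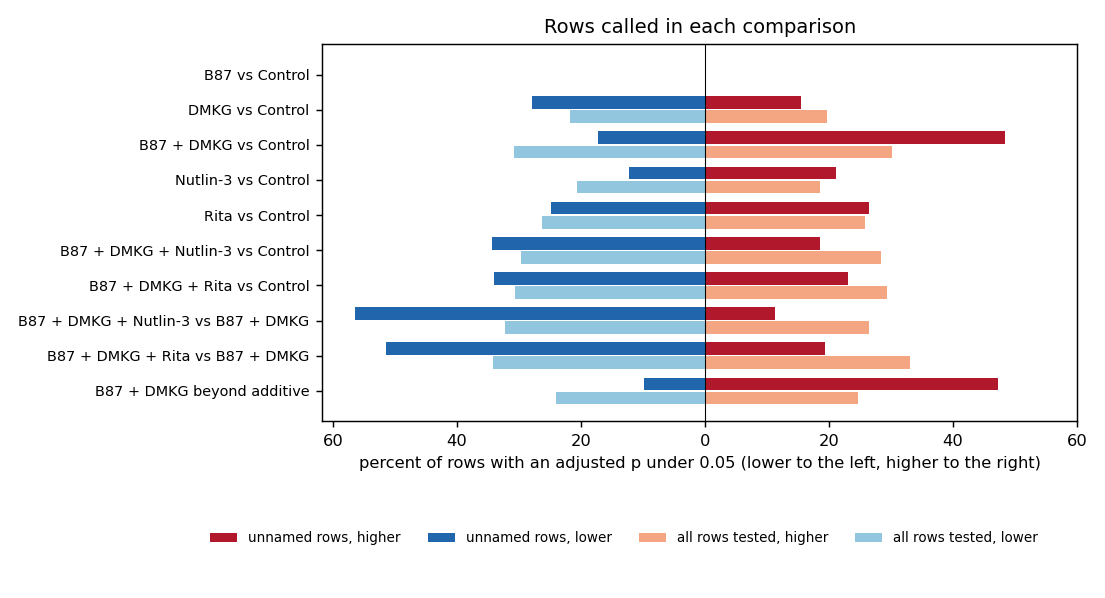
Percent of rows called lower (bars to the left) and higher (bars to the right) at an adjusted p under 0.05 in each comparison, for the unnamed rows and for all rows tested. In B87 + DMKG 48.4% of the unnamed rows were higher against 30.2% of all rows.

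Rows inside gene spans had the highest median of the large classes, 0.727, with 185 higher and 47 lower of 319. Rows past a 3′ end had a median of 0.187 (64 higher, 32 lower of 158), rows before a 5′ end 0.245 (32 and 13 of 77), rows partly over a gene 0.248 (55 and 27 of 132) and rows farther than 5 kb 0.329 (88 and 35 of 193). Per library the median inside spans, relative to the Control mean, was 0.571 to 0.735 in B87 + DMKG. The differences between classes were not tested. The nuclear RNA MALAT1 rose in the same libraries, from 1628, 857, 907 and 1161 in Control to 23333, 20771, 16395 and 15214 in B87 + DMKG (4.08 ± 0.34, limma adjusted p = 2e-11).

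**Figure D2:**
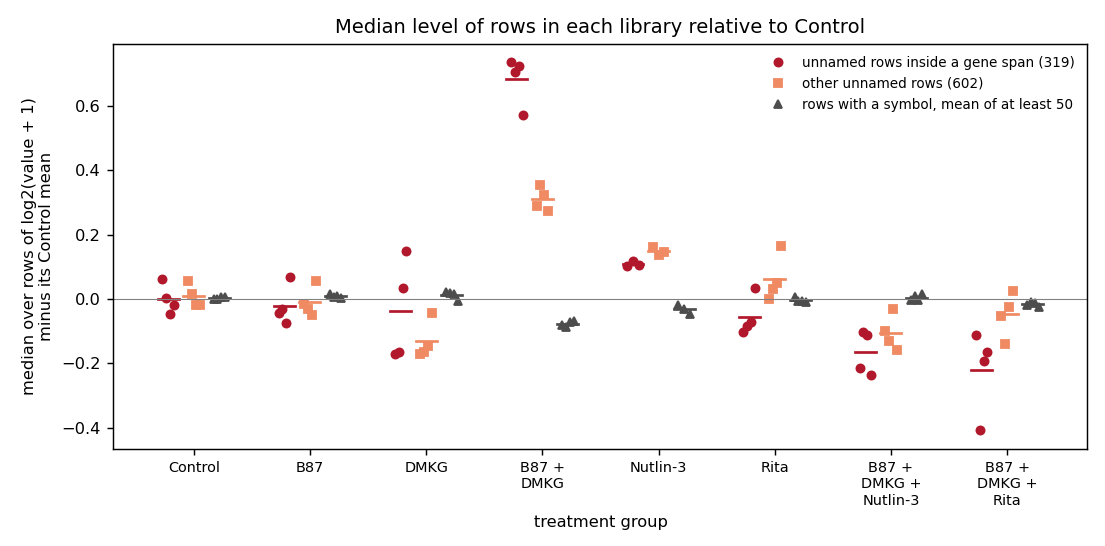
Median over rows of the log2 value minus its Control mean (vertical axis) in every library of the 8 groups, for unnamed rows inside gene spans, other unnamed rows, and rows with a symbol at a mean of at least 50; each point is 1 library and each bar the group mean. The B87 + DMKG libraries sit between 0.571 and 0.735 for rows inside gene spans.

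Among called rows without overlap, the largest rise was in a row inside PDLIM5, the gene of a scaffold protein of the actin cytoskeleton. GSHG0022741 (chr4:95509890-95515427) had 25.6, 8.53, 4.77 and 6.56 normalized reads in Control, 19.6, 3.11, 3.62 and 13.1 in B87 and 22.3, 16.9, 6.82 and 24.5 in DMKG, and 601, 537, 439 and 472 in B87 + DMKG. Every library with both agents was above every library of the other 3 groups (51.9% of all rows tested had B87 + DMKG and Control without overlap). The difference from Control was 5.63 ± 0.66 (limma adjusted p = 1.6e-08) and that from the sum of the single effects 5.16 ± 0.93 (limma adjusted p = 3.7e-05). This row can have passed the level limit through B87 + DMKG, and these p-values do not allow for that. The row inside SLC16A4, a monocarboxylate transporter family gene (GSHG0000794, chr1:110911021-110915625), went from 34.2, 19.2, 23.9 and 2.19 in Control to 423, 467, 396 and 307 in B87 + DMKG (4.68 ± 0.55, limma adjusted p = 1.5e-08). With DMKG alone that row was at 80.7, 61.1, 109 and 212 (2.76 ± 0.55, limma adjusted p = 0.00014). GSHG0028731 (chr7:151165004-151167023), inside RHEB, the gene of the GTPase that activates mTORC1, was at 22.4, 21.3, 9.55 and 7.66 in Control and 334, 256, 309 and 360.4 in B87 + DMKG, higher by 4.41 ± 0.46 (limma adjusted p = 1.9e-09) and without overlap.

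A further 3 rows are given with both single agents beside the combination. GSHG0138053 (chr17:78174474-78178870), inside CARD14, the gene of a scaffold protein in NF-kB signalling, had 96.1, 94.8, 105 and 83.1 normalized reads in Control, 59.7, 73.1, 87.7 and 42.6 in B87, 27.8, 44.2, 186 and 212 in DMKG and 911, 919, 1173 and 1136 in B87 + DMKG. Its rise with both agents was 3.43 ± 0.41 (limma adjusted p = 2.3e-08), beyond additive by 4.16 ± 0.58 (limma adjusted p = 7.6e-07). GSHG0004304 (chr10:101376349-101379138), inside SLC25A28, the gene of the mitochondrial iron importer mitoferrin-2, had 59.8, 36.2, 31 and 59 in Control, 24.9, 24.9, 52.4 and 26.2 in B87, 50.1, 37.7, 79.6 and 84.2 in DMKG and 722, 752, 506 and 579.5 in B87 + DMKG, beyond additive by 3.92 ± 0.45 (limma adjusted p = 3.3e-08). GSHG0012284 (chr17:18314473-18317702), 5579 bases from the keratin pseudogene KRT17P5, had 33.1, 35.2, 37 and 29.5 in Control, 16.6, 21, 24.4 and 13.1 in B87, 32, 26, 47.8 and 53.3 in DMKG and 339, 407, 421 and 368 in B87 + DMKG, beyond additive by 4.13 ± 0.37 (limma adjusted p = 3.4e-10). In all 3 every B87 + DMKG library was above every library of the other 3 groups.

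Tested against the sum of the 2 single effects, 436 unnamed rows were above additive and 91 below, 57.2% of the 921 against 48.8% of all rows tested, with 47.3% above against 24.6% and a median of 0.639 against 0.0154. Of the rows with a symbol at a mean of at least 50, 53.8% were called, 23.4% above and 30.4% below. Chosen by the libraries outside the contrast only, 865 rows had 389 above and 91 below, with a median of 0.577. With quantile normalization 356 unnamed rows were above and 137 below, and of all 16259 rows tested 3780 were above and 4024 below. This contrast uses the same Control, DMKG and B87 + DMKG libraries as the comparisons before it, and without DMKG libraries 1 and 2, or 3 and 4, it had 379 above and 81 below, or 438 above and 92 below.

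Falls with B87 + DMKG were fewer. GSHG0140270 (chr22:46646274-46648542) lies 72 bases before CDPF1, whose promoter is printed above, and was at 111, 81, 85.9 and 101 in Control and 22.4, 44, 10.7 and 12.1 in B87 + DMKG. The groups did not overlap, the difference was -2.24 ± 0.36 (limma adjusted p = 3e-06), and CDPF1 itself moved the other way, by 0.83 ± 0.11 (limma adjusted p = 1.9e-07). GSHG0000912 (chr1:147751386-147763966), far from any gene row other than those of small RNAs, went from 849, 858, 282 and 1003 to 96.2, 88, 79.3 and 64.6 (-3.04 ± 0.26, limma adjusted p = 2.5e-11). The abundant RPL10P16-side row GSHG0053978 was at 25051, 27784, 25295 and 24417 in Control and 14945, 14919, 18328 and 19673 in B87 + DMKG, a difference of -0.60 ± 0.09 (limma adjusted p = 1.5e-06).

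**Figure D3:**
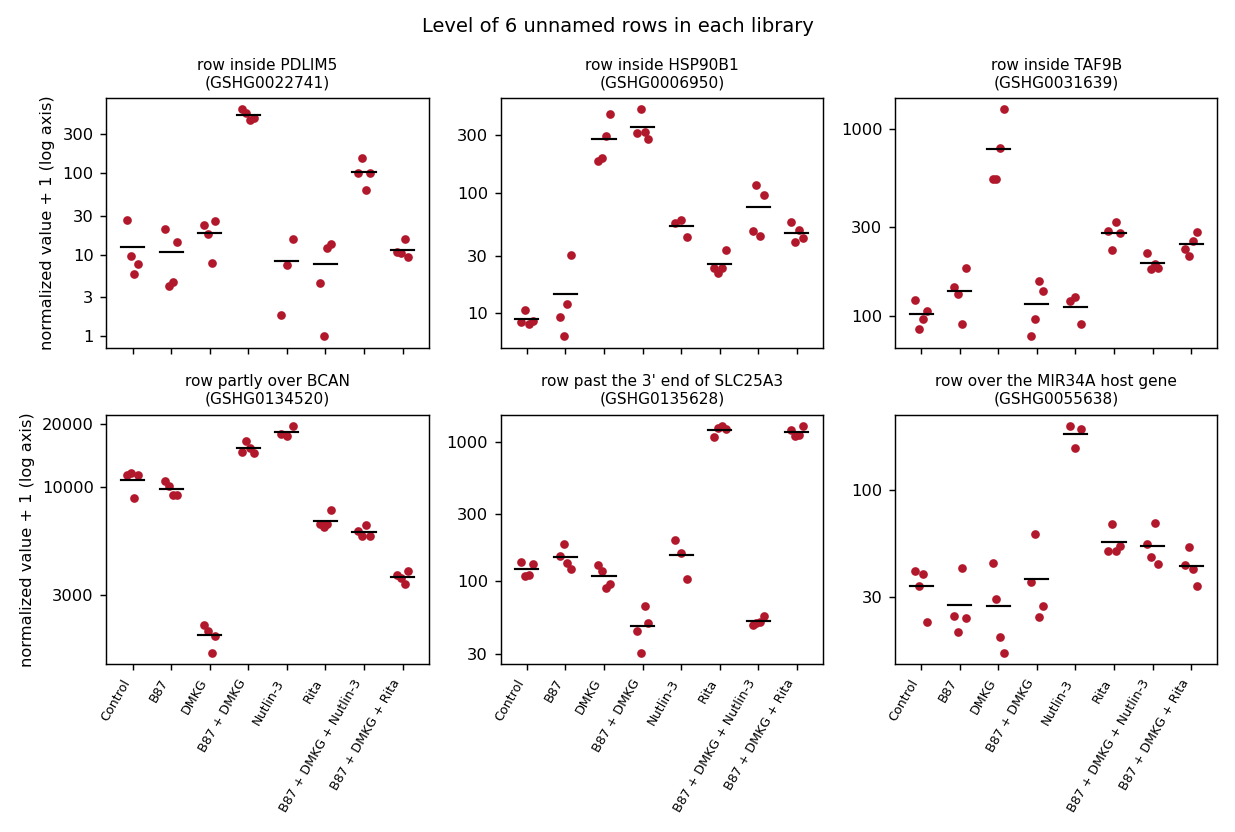
Normalized reads + 1 (log axis) of 6 unnamed rows in every library of the 8 groups; each point is 1 library and each bar the group mean. The row inside PDLIM5 is highest in B87 + DMKG, and the row past SLC25A3 in the Rita groups.

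To ask whether an unnamed row moved with its gene, the log2 value of the nearest gene row was subtracted in each library, for 655 unnamed rows with a tested gene row overlapping or within 5 kb. In B87 + DMKG 329 rose and 89 fell relative to the gene, 63.8% against 57.8% of the 1764 pairs tested, which include rows at lower levels and of which 48.0% rose and 9.86% fell. The unnamed rows had a median of 0.42 and their genes -0.125. Of the 418 called pairs 123 had a gene whose own change was not called. Inside spans 174 rose and 30 fell of 291, and past a 3′ end 74 rose and 19 fell of 153. With quantile normalization 274 rose and 129 fell. Relative to PDLIM5 the row GSHG0022741 rose by 5.48 ± 0.64 (limma adjusted p = 3e-08), and relative to SLC16A4 the row GSHG0000794 by 5.30 ± 0.56 (limma adjusted p = 7.2e-09). Relative to CDPF1 the row GSHG0140270 differed by -3.08 ± 0.37 (limma adjusted p = 5e-08).

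**Figure D4:**
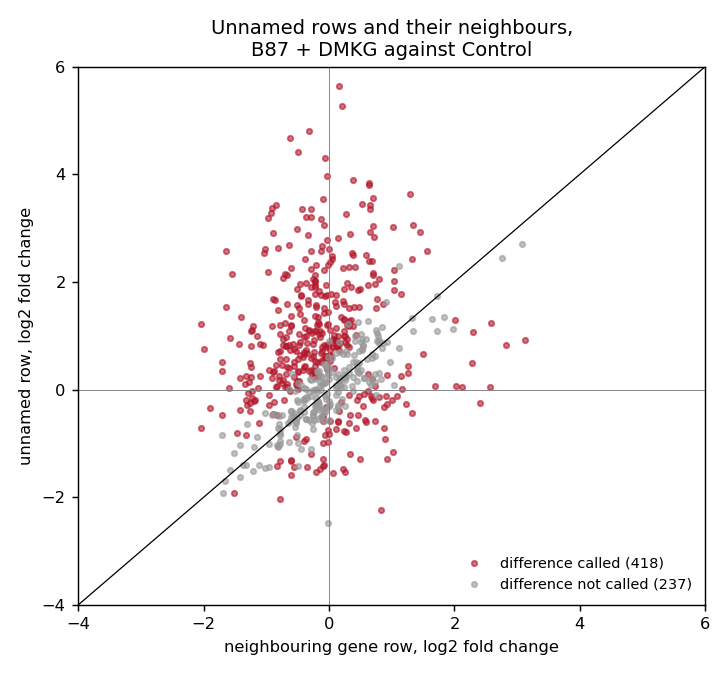
Log2 fold change in B87 + DMKG against Control of 655 unnamed rows (vertical axis) and of their nearest gene rows (horizontal axis); each point is 1 pair, red where the difference within the pair was called, and the diagonal marks equal change. Of the red points 329 lie above the diagonal and 89 below it.

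The same test was run for DMKG, Nutlin-3 and Rita. With DMKG 87 rose and 153 fell relative to the gene (36.6% of 655 against 29.0% of all pairs, of which 12.1% rose and 16.9% fell). Relative to HSP90B1 the row GSHG0006950 rose by 4.38 ± 0.35 (limma adjusted p = 1.1e-10) and relative to LINC00473, a long intergenic noncoding RNA, GSHG0027057 rose by 3.56 ± 0.33 (limma adjusted p = 1.6e-09). Relative to HK2, the gene of hexokinase 2, the row inside it, GSHG0139350, differed by -3.95 ± 0.25 (limma adjusted p = 4.2e-13). That row was at 354, 414, 312 and 394 in Control and 162, 164, 83 and 81.4 in DMKG, while HK2 rose from 4151, 3489, 3831 and 3971 to 17002, 18539, 19476 and 20796 (2.29 ± 0.09, limma adjusted p = 1.4e-18). The 2 moved in opposite directions in every DMKG library.

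With Nutlin-3 195 unnamed rows rose and 113 fell, 33.4% against 39.1% of all rows tested, so fewer than the background were called. Of all rows 18.5% rose and 20.7% fell, and the unnamed rows had a median of 0.116 against -0.00827. Of the rows with a symbol at a mean of at least 50, 46.4% were called, 21% higher and 25.3% lower. With the same total in every library 153 rose and 153 fell, while of all 16259 rows tested 2052 rose and 4667 fell. Relative to the neighbouring gene 113 rose and 61 fell (26.6% of 655 against 16.0% of all pairs, of which 10.9% rose and 5.16% fell). Without Nutlin-3 replicate 3 these were 105 in all, 68 higher and 37 lower, and without any other library of the comparison at most 177.

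A rise was found at the locus of MIR34A, a microRNA gene that p53 activates. GSHG0055638 (chr1:9242263-9252142), partly over the row of MIR34A and its host gene MIR34AHG, was at 39.5, 33, 38.2 and 21.9 normalized reads in Control and 204, 159 and 197 in Nutlin-3. The host row was at 128, 76.7, 66.8 and 103 in Control and 925, 916 and 847 in Nutlin-3. Both rose without overlap, which 41.9% of all rows tested had for Nutlin-3 and Control, by 2.48 ± 0.32 (limma adjusted p = 3.3e-07) for the unnamed row and 3.29 ± 0.40 (limma adjusted p = 1.4e-07) for the host. The mature product, printed above, is a short RNA without a poly(A) tail, and its level was not measured. With B87 + DMKG + Nutlin-3 the unnamed row was at 53.5, 46, 68.4 and 42.8, and with Rita at 49.7, 67.3, 49.5 and 52.3.

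Other rises with Nutlin-3 were inside genes. GSHG0140670 (chr3:111441851-111445744), inside PHLDB2 and PLCXD2, rose by 1.54 ± 0.21 (limma adjusted p = 8.6e-07) from 113, 113, 107 and 131 to 272, 335 and 429, and by 2.66 ± 0.28 relative to those genes. GSHG0138907 (chr2:25049724-25054099), inside the adenylate cyclase gene ADCY3, rose by 1.62 ± 0.24 (limma adjusted p = 4.5e-06) from 94, 90.6, 84.7 and 56.9 to 340.4, 188 and 239. A row of 25 bases inside RPL23A (GSHG0140804) went from 16, 18.1, 23.9 and 16.4 to 114, 146 and 55.6 (2.35 ± 0.34, limma adjusted p = 2.8e-06). At this length its reads may be shared with other copies of a ribosomal protein sequence.

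Among the falls with Nutlin-3, 3 rows are given with their values. GSHG0138547 (chr19:13948620-13951002), 5576 bases from ZSWIM4, fell from 64.1, 33, 33.4 and 39.4 to 1.61, 9.62 and 18.1 (-2.37 ± 0.51, limma adjusted p = 0.00045), and the next RefSeq gene on that side is MIR23AHG, the host of a microRNA cluster. GSHG0140091 (chr21:46932490-46933941), inside the folate carrier gene SLC19A1, fell from 274, 300.5, 267 and 234 to 117, 46.5 and 78.5 (-1.82 ± 0.23, limma adjusted p = 1.9e-07). GSHG0142518 (chr7:196698-200679), inside the kinase gene FAM20C, fell from 270.2, 284, 227 and 278 to 75.7, 76.2 and 67.6 (-1.84 ± 0.34, limma adjusted p = 7.6e-05). None of the 3 overlapped between the groups.

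With Rita the calls were nearly equal in both directions, 243 higher and 229 lower, 51.2% against 52.1% of all rows tested, of which 25.8% rose and 26.3% fell. The medians were 0.0333 for unnamed rows and 0.0265 for all rows. Of the rows with a symbol at a mean of at least 50, 59.1% were called, 28% higher and 31.1% lower. With the same total in every library 179 rose and 291 fell, while of all 16259 rows tested 2581 rose and 5784 fell. Inside gene spans 73 rose and 94 fell of 319, and past a 3′ end 51 rose and 39 fell of 158. Relative to the neighbouring gene 175 rose and 122 fell (45.3% of 655 against 31.4% of all pairs, of which 20.5% rose and 10.9% fell), and past a 3′ end 48 rose and 21 fell of 153.

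The row past SLC25A3 was among the largest rises with Rita. GSHG0135628 (chr12:98997629-99000150) starts 1851 bases past the 3′ end of SLC25A3, the gene of the mitochondrial phosphate carrier, and had 135, 108, 109.8 and 130.1 normalized reads in Control and 1079, 1245, 1284 and 1221 in Rita. It was higher by 3.32 ± 0.19 (limma adjusted p = 4.6e-15), without overlap, which held for 53% of all rows tested, while SLC25A3 had 39081, 44986, 41602 and 40954 in Control and 50137, 51771, 53099 and 38346 in Rita. Relative to SLC25A3 the row rose by 3.11 ± 0.18 (limma adjusted p = 6.4e-14). With B87 + DMKG it was at 42.5, 29.3, 65 and 48.5, a difference of -1.41 ± 0.19 (limma adjusted p = 1.5e-07) from Control, and with B87 + DMKG + Rita at 1207, 1087, 1111 and 1292. Every library of both Rita groups was above every library of Control and B87 + DMKG. GSHG0142766 (chr11:93459818-93462971), inside the centrosomal gene CEP295, went from 17.1, 14.9, 47.7 and 30.6 to 309, 338, 309.7 and 324 (3.64 ± 0.28, limma adjusted p = 4.9e-12). GSHG0135062 (chr10:93381310-93382038), 6159 bases from the glycogen phosphatase subunit gene PPP1R3C, went from 4.27, 6.39, 7.16 and 14.2 to 175, 175, 208 and 119 (4.32 ± 0.53, limma adjusted p = 5e-08).

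Among the falls with Rita was a row at ZNF407, a zinc finger gene. GSHG0132558 (chr18:72265128-72345327), partly over it, was at 137, 70.3, 111 and 103 in Control and 11.3, 5.29, 8.65 and 8.37 in Rita (-3.50 ± 0.34, limma adjusted p = 6.7e-10), and ZNF407 itself was at 593, 575, 591 and 549 and 56.7, 65.8, 68.4 and 84.8 (-3.06 ± 0.15, limma adjusted p = 1.3e-16). GSHG0139444 (chr2:111994606-111996624), inside the long noncoding RNA gene MIR4435-2HG, fell from 204, 213, 228 and 204 to 27, 30.3, 29.1 and 31.4 (-2.81 ± 0.18, limma adjusted p = 7.1e-14). GSHG0027253 (chr7:30407454-30412408), 147 bases past the ubiquitin ligase gene ZNRF2, fell from 161, 164, 126 and 140.0 to 38.4, 12.1, 18.1 and 39.8 (-2.56 ± 0.31, limma adjusted p = 4.3e-08). All 3 were below Control in every Rita library.

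With Nutlin-3 or Rita added, most of the called unnamed rows were lower than in B87 + DMKG. Nutlin-3 had 104 higher and 520 lower (67.8% against 58.9% of all rows tested, of which 26.5% were higher and 32.3% lower), with a median of -0.624 against -0.0524. Rita had 179 higher and 473 lower (70.8% against 67.3%, of which 33.1% were higher and 34.2% lower), with a median of -0.499 against 0.000632. These share the B87 + DMKG libraries with the comparison to Control, where the same rows had a median of 0.376, and the values are only set side by side. Of the rows with a symbol at a mean of at least 50, 63.1% were called with Nutlin-3 added and 71.7% with Rita added. Chosen by the libraries outside the comparison only, 869 rows had 104 higher and 466 lower with Nutlin-3 added (median -0.564). For Rita such a choice gave 857 rows, 177 higher and 421 lower (-0.412). With quantile normalization the counts of unnamed rows were 196 higher and 422 lower for Nutlin-3 and 263 higher and 397 lower for Rita. Of all 16259 rows tested 5489 were then higher and 4312 lower for Nutlin-3, and 5870 and 5063 for Rita. Inside gene spans 28 rose and 210 fell with Nutlin-3 (median -0.909) and 43 rose and 197 fell with Rita (-0.838), and past a 3′ end 8 rose and 101 fell with Nutlin-3 (-0.759) and 38 rose and 81 fell with Rita (-0.528).

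**Figure D5:**
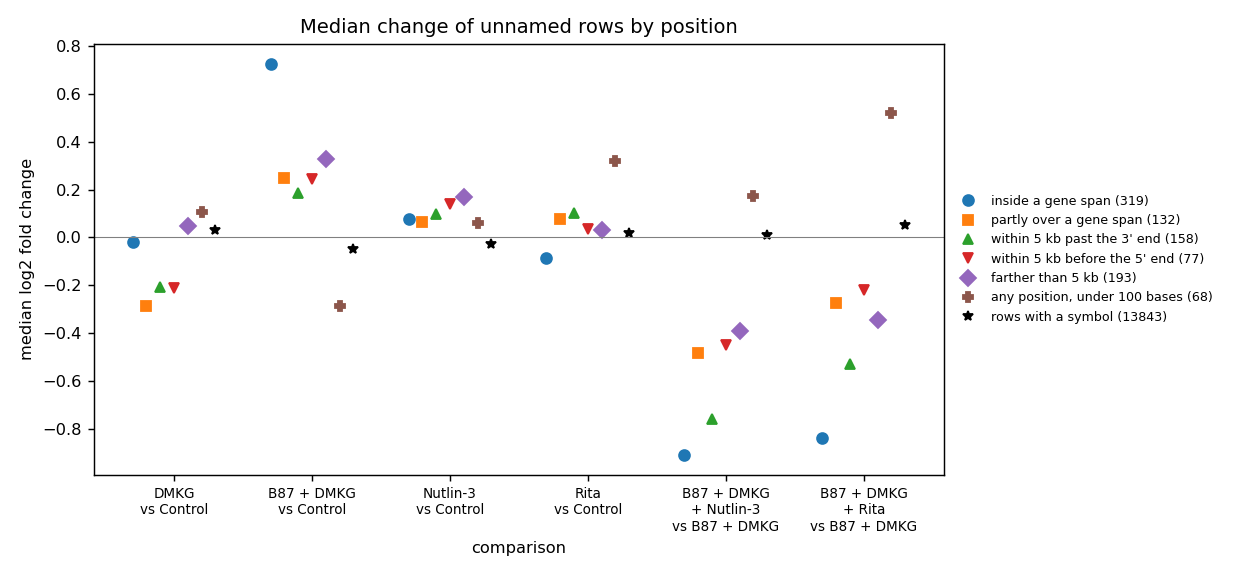
Median log2 fold change (vertical axis) of unnamed rows by position class, with the rows under 100 bases and the rows with a symbol beside them, in 6 comparisons; each symbol is the median of 1 class. Of the classes drawn, rows inside gene spans have the highest median in B87 + DMKG against Control (0.727) and the lowest when Nutlin-3 (-0.909) or Rita (-0.838) was added.

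Against Control, B87 + DMKG + Nutlin-3 had 171 higher and 316 lower (52.9% against 58.0% of all rows tested, of which 28.3% were higher and 29.7% lower), with a median of -0.122, and B87 + DMKG + Rita had 213 higher and 313 lower (57.1% against 60.1%, of which 29.4% were higher and 30.7% lower), with a median of -0.112. Of the rows with a symbol at a mean of at least 50, 66.6% were called with B87 + DMKG + Nutlin-3 and 67.8% with B87 + DMKG + Rita. Past a 3′ end 13 rose and 81 fell with B87 + DMKG + Nutlin-3 (median -0.559), and 41 rose and 57 fell with B87 + DMKG + Rita (-0.174). With the same total the counts were 106 higher and 373 lower for the first and 136 and 404 for the second. Of all 16259 rows tested 3039 were then higher and 5947 lower for the first and 2719 and 7032 for the second. The share of all values held by the unnamed rows was 0.692% to 0.729% in the 8 triple libraries, below every Control library.

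The PDLIM5 row GSHG0022741 was at 98.9, 150.3, 61 and 98.5 normalized reads in B87 + DMKG + Nutlin-3 and 9.64, 9.44, 14.4 and 8.29 in B87 + DMKG + Rita, against 601, 537, 439 and 472 in B87 + DMKG, and differed from the last by -2.37 ± 0.66 with Nutlin-3 and -5.50 ± 0.66 with Rita. The CARD14 row GSHG0138053 was at 63.6, 64.1, 50.8 and 77.1 with Nutlin-3, a difference of -4.00 ± 0.41 (limma adjusted p = 1.7e-09) from B87 + DMKG. The SLC25A28 row GSHG0004304 was at 27.2, 57.5, 32.3 and 59.1, a difference of -3.89 ± 0.32 (limma adjusted p = 2e-11). A row inside the secreted protein gene OAF (GSHG0005324, chr11:120089850-120093270) was at 112, 135, 117 and 167 in B87 + DMKG and 0, 8.21, 7.39 and 8.57 with Nutlin-3 (-4.66 ± 0.51, limma adjusted p = 5.4e-09), which includes a library at 0, where the fitted value depends on the added 1. No library of these rows in the Nutlin-3 combination reached the B87 + DMKG range, and 47.7% of all rows tested had these groups apart.

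With Rita added the row past SLC25A3, GSHG0135628, was above B87 + DMKG by 4.69 ± 0.19 (limma adjusted p = 5.7e-19) and the CEP295 row GSHG0142766 by 4.49 ± 0.28 (limma adjusted p = 1.8e-14). GSHG0136684 (chr15:55464171-55470374), 3139 bases past the ribosome biogenesis gene RSL24D1, rose from 25.7, 2.67, 5.35 and 10.1 to 193, 181, 186 and 180.4 (4.35 ± 0.35, limma adjusted p = 6.7e-12). A row inside GPI, the gene of glucose-6-phosphate isomerase (GSHG0014804, chr19:34878174-34879998), fell from 134, 82.7, 80.2 and 156 to 2.63, 0, 5.4 and 0 (-5.64 ± 0.64, limma adjusted p = 5.9e-09), where the fitted value of a library at 0 depends on the added 1. A row inside LRPPRC, a gene of mitochondrial RNA stability (GSHG0017599, chr2:44117987-44120782), fell from 388, 440.0, 390.3 and 309 to 12.3, 3.78, 14.4 and 10.4 (-5.21 ± 0.39, limma adjusted p = 8.5e-13). Each of these 3 separated the 2 groups without overlap, as did 59.3% of all rows tested.

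Some rows moved far from Control in the triple groups. The CDPF1 row GSHG0140270 was at 5.04, 7.39, 1.85 and 5.14 in B87 + DMKG + Nutlin-3 (-4.12 ± 0.36, limma adjusted p = 2.4e-11), its lowest group, and apart from Control like 58.1% of all rows tested. GSHG0000030 (chr1:1344476-1345997), 1783 bases before the mitochondrial ribosomal protein gene MRPL20, was at 172, 213, 202 and 144 in Control and 11.1, 20.5, 9.24 and 12 (-3.74 ± 0.24, limma adjusted p = 1.5e-14). RefSeq lists MRPL20-DT, a divergent transcript, as the next gene on that side. GSHG0141021 (chr3:153990875-153992637), 821 bases past the helicase gene DHX36, fell from 281, 265, 342 and 325 to 20.2, 37.8, 38.8 and 21.4 (-3.37 ± 0.23, limma adjusted p = 9.5e-14), while DHX36 differed by -3.07 ± 0.11 (limma adjusted p = 9.5e-21). GSHG0120813 (chr14:75747486-76176131) overlaps several genes, among them, at least in part, the immediate early gene FOS, and rose from 42.7, 26.6, 68 and 24.1 in Control to 673, 628, 656 and 552 with Nutlin-3 (4.04 ± 0.33, limma adjusted p = 4.9e-12) and 1067, 987, 969 and 1048 with Rita (4.74 ± 0.33, limma adjusted p = 1.8e-13). Its reads cannot be told apart from those of the genes it overlaps.

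The 68 unnamed rows shorter than 100 bases had a median of opposite sign to all unnamed rows in B87 + DMKG, a difference that was not tested. In B87 + DMKG 23 rose and 25 fell (median -0.288; 70.6% called against 61.0% of all rows), and with Rita added to B87 + DMKG 34 rose and 9 fell (0.521). With DMKG 10 rose and 4 fell (20.6% called against 41.4% of all rows), and with Rita 23 rose and 6 fell (42.6% against 52.1%), so fewer than the background were called in both. They include 6 rows between 49578969 and 49580421 on chromosome 12, inside TUBA1A, the gene of an α-tubulin with near-identical relatives, of which 5 fell and 1 rose with B87 + DMKG. Of these GSHG0125851, 91 bases long, was at 526, 677, 685 and 627 normalized reads in Control and 148, 89.3, 238 and 173 in B87 + DMKG (-2.03 ± 0.27, limma adjusted p = 1.2e-07). Another run of 5 rows of 32 to 35 bases between 36812184 and 36812476 on chromosome 10 fell with B87 + DMKG in all 5, by log2 values from -1.50 to -0.43, and rose in 3 with DMKG. Rows of this length hold few positions for reads, and neighbours in a run may share reads. A run of longer rows, 5 between 3735571 and 3800381 on chromosome X, had 4 called higher with Nutlin-3, among them GSHG0033574 (1276, 1121, 1271 and 1238 in Control, 2154, 2547 and 2575 in Nutlin-3), a difference of 0.98 ± 0.11 (limma adjusted p = 4e-08). Of all rows tested 18.5% were called higher with Nutlin-3.

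The genes that make and remove such RNAs were read from the same fit. Of 20 genes of 3′ end cleavage and polyadenylation 2 rose and 8 fell with DMKG, 4 rose and 9 fell with B87 + DMKG, and 9 rose and 9 fell with Rita (medians -0.169, -0.0839 and 0.0455). These are 50%, 65% and 90% called, against 41.4%, 61.0% and 52.1% of all rows tested. The row of CPSF7 also holds FTH1 and had a Control mean of 277423 normalized reads. It rose by 0.44 with DMKG, 0.51 with B87 + DMKG and 0.49 with Rita. FIP1L1 shares its row with PDGFRA, which rose by 0.45 with B87 + DMKG, and PABPN1 shares one with BCL2L2. Reads of genes in a shared row cannot be told apart. Of 12 genes of termination by XRN2 and PP1-PNUTS 1 rose and 4 fell with DMKG, with PPP1R10, the gene of PNUTS, at 3992, 3554, 4334 and 3699.7 normalized reads in Control and 217, 264, 154 and 183 in DMKG (-4.27 ± 0.13, limma adjusted p = 3.1e-21). ZC3H4, which restrains transcription outside genes, differed by -2.64 ± 0.19 (limma adjusted p = 1.8e-12). In B87 + DMKG PPP1R10 was above Control by 0.78 ± 0.13 (limma adjusted p = 4.6e-06), and ZC3H4 was not called (-0.05 ± 0.19). With B87 + DMKG 3 of the 12 rose and 4 fell, and the shares called, 41.7% with DMKG and 58.3% with B87 + DMKG, were near those of all rows. PPP1CB, among those that fell, shares its row with SPDYA. Of 16 Integrator genes 2 rose and 7 fell with DMKG, with INTS5 at -2.33 ± 0.19 (limma adjusted p = 2.1e-11), and 4 rose and 7 fell with B87 + DMKG, 56.2% and 68.8% called.

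Of 21 genes of the nuclear exosome and its adaptors none rose and 8 fell with DMKG, 3 rose and 10 fell with B87 + DMKG, 1 rose and 11 fell with Nutlin-3, and 5 rose and 8 fell with Rita (medians -0.17, -0.266, -0.269 and -0.199). Called were 38.1%, 61.9%, 57.1% and 61.9%, against 41.4%, 61.0%, 39.1% and 52.1% of all rows tested, so with DMKG and B87 + DMKG the shares were near the background. The row of EXOSC3 also holds SHB, SLC25A51 and TOMM5. RBM7, the RNA-binding subunit of NEXT, was at 1555, 1409, 1541 and 1632 in Control and 660.0, 359, 456 and 405 in B87 + DMKG (-1.74 ± 0.12, limma adjusted p = 3.4e-13). DIS3, a catalytic subunit of the exosome, differed by -1.15 ± 0.09 (limma adjusted p = 3.6e-12) and CLP1, an RNA kinase of a cleavage factor and a member of the cleavage list, by -1.48 ± 0.14 (limma adjusted p = 1.7e-10). The 3 exosome list genes that rose with B87 + DMKG were EXOSC10 (0.51 ± 0.07), SRRT (0.63 ± 0.07) and ZC3H18 (0.53 ± 0.09). RBBP6, a polyadenylation factor, rose with Rita from 749, 637, 831 and 852 to 2209.5, 2234, 2185 and 2954 (1.64 ± 0.21, limma adjusted p = 1.1e-07). With Nutlin-3 added to B87 + DMKG 14 of the 21 exosome genes rose and 5 fell (90.5% called against 58.9% of all rows), and with Rita 10 rose and 8 fell (85.7% against 67.3%). Of 16 tested long noncoding RNAs, a list that includes MALAT1, 6 rose and 5 fell with B87 + DMKG (68.8% against 61.0%). The part of any of these genes in the levels of the unnamed rows was not tested.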

How the data were processed

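Libraries of poly(A) RNA were made with a stranded mRNA kit, per the labels' protocols, and the submitters' processing notes name FastQC, Picard, SAMtools, STAR 2.4.0, DESeq2 and the mouse build mm10. The table itself, of a human line, gives hg19 in its header. The authors deposited 1 table of normalized read signal per row and library. Every nonzero value tested was a whole multiple of the step of its library within 0.1 steps (100% of values in each library), so whole reads (or read pairs, since the unit counted is not given in the sources used here) were recovered, 33.4 M to 82.5 M per library, for alternative tests with edgeR 4.0.16 and DESeq2 1.42.0.

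The tests used limma 3.58.1 in R 4.3.3 with a mean per group, all 31 libraries, an eBayes trend and Benjamini-Hochberg adjustment, on log2 of the value + 1, for 16259 rows with a mean of at least 10. Fold changes are on that scale, which understates changes of low rows. All 921 unnamed rows passed this filter, which the choice at 50 ensures. Differences are given ± standard error. The neighbour test subtracted the log2 value of the nearest gene row, small RNA rows left out, per library over 1764 pairs. "Rose", "fell" and "called" mean an adjusted p under 0.05. The comparisons were each treatment or triple with Control, each triple with B87 + DMKG, and B87 + DMKG beyond the sum of B87 and DMKG.

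Named were the 10 highest rows, the largest called changes per comparison whose groups did not overlap (up to 4 in each direction), the largest 3 per direction relative to the neighbour, 3 rows on each side of the level limit, the 3 longest runs, neighbouring genes and list members. Not all rows that this rule gives are printed. The highest row is not reported here. Rows with a gene ID, short rows, further runs and rows whose values in other groups are quoted were chosen after their values were seen. The members and lists were chosen with earlier results of these data known. Alternatives were another added constant, filter, scaling, tool, call rule, level limit, window or set of libraries, and the replicate number as a block. Rows on the mitochondrial chromosome and the Y chromosome were left out. Sequences of the unnamed rows are not printed, since no genome of build hg19 was used here. Promoters, the microRNA and gene orders came from RefSeq, and the strand of a gene row from GENCODE by its symbol. Reads are not marked by molecule, so precision covers counting only.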

Additional observations from a re-analysis of the deposited data

Results flagged for a closer look

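Of 161 groups of 4 libraries behind the values named above, 7 had 1 library apart from the other 3 (by Dixon's test, which by chance marks about 1 in 20 groups). These were the row inside BAIAP2L1, GSHG0027544, in DMKG (117), the BCAN row GSHG0134520 in Control (8793), the SLC25A28 row GSHG0004304 in B87 (52.4), the TUBA1A row GSHG0125851 in B87 (1028), the CNP row GSHG0012499 in Control (3166), RBBP6 in Rita (2954) and the OAF row GSHG0005324 in B87 + DMKG + Nutlin-3 (0).

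B87 changed cells that had DMKG otherwise than cells that had none for 527 unnamed rows, by the test beyond additive in limma (57.2% against 48.8% of all rows tested). Among the named rows this difference was 5.16 for GSHG0022741 (PDLIM5), 4.16 for GSHG0138053 (CARD14), 4.13 for GSHG0012284, 3.92 for GSHG0004304 (SLC25A28), 3.14 for GSHG0134520 (BCAN), -2.73 for GSHG0125851 (TUBA1A) and -3.09 for GSHG0031639 (TAF9B), all on the log2 scale.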

How the results depend on the processing

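Of 96 named results that were called, 94 kept their call and direction in each alternative setting that applied to them, and 17 had a log2 change under 1. There were 43 such settings that change the fit. Those that left out libraries were applied only to comparisons that use the group of these libraries. Changes relative to the neighbour were not among these results, and only their counts were compared. The OAS1 and OAS3 rises with B87 + DMKG + Nutlin-3 lost the call with the same total in every library. ALAS1 with Nutlin-3 gained it there (-0.17, limma adjusted p = 0.023). Same totals moved the median of all rows by -0.254 (B87 + DMKG + Rita against Control) to 0.119 (beyond additive), and quantile normalization by at most 0.136 (B87 + DMKG + Nutlin-3 against B87 + DMKG). With a log2 change of at least 1 the called rows were 0 for B87, 181 for DMKG, 321 for B87 + DMKG, 106 for Nutlin-3, 208 for Rita, 229 and 237 for the triples with Nutlin-3 and Rita against Control, and 370 and 404 against B87 + DMKG. With a mean of at least 100 they were 250 for DMKG, 371 for B87 + DMKG, 299 for Rita, 311 and 338 for the triples against Control, 396 and 403 against B87 + DMKG, and 339 beyond additive. Without the rows with a gene ID or off the main chromosomes B87 had 0. Leaving out 1 library gave 1 to 1 rows for B87, 333 to 399 for DMKG, 561 to 597 for B87 + DMKG, 234 to 311 for Nutlin-3, 429 to 452 for Rita, 446 to 468 and 492 to 509 for the triples against Control, 589 to 628 and 626 to 651 against B87 + DMKG, and 481 to 542 beyond additive. Relative to the neighbour it gave 203 to 244 for DMKG, 388 to 408 for B87 + DMKG, 105 to 177 for Nutlin-3 (105 without Nutlin-3 replicate 3; the cause was not tested) and 263 to 278 for Rita. With the replicate number as a block the counts were 1, 396, 600, 311, 461, 481, 532, 625, 648 and 515 in the order above, and 240, 412, 167 and 294 relative to the neighbour. Of 105 pairs of libraries with the same number 6 had a correlation of deviations over 0.1 (range -0.207 to 0.187). The median was -0.0033, against -0.0025 for pairs with different numbers, so no deviation shared by number was seen. This cannot tell whether a number marks a shared day or culture. At levels near 50 normalized reads a library holds few reads of a row, which limits small differences.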

Other observations

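Further runs of unnamed rows, with no gene row between them, had values not given above. On chromosome 2, 4 rows of 26 to 32 bases between 175584578 and 175585195 fell with B87 + DMKG in all 4 (log2 values from -3.11 to -0.79), and all 4 were higher with Rita added to B87 + DMKG than without it (1.07 to 3.00). Also on chromosome 2, 4 rows between 3589021 and 3591770 fell with DMKG (-0.71 to -0.46) and with B87 + DMKG (-1.59 to -0.51), while 3 of the 4 rose with Rita alone (0.40 to 0.98 over the 4). On chromosome X, 4 rows between 73416194 and 73433495 rose with B87 + DMKG (1.36 to 2.13), and all 4 were lower with Nutlin-3 added (-3.64 to -2.06) and with Rita added (-5.05 to -2.52). On chromosome 2, 3 rows between 217076127 and 217084915 rose with Rita (0.77 to 0.95) and none was called with B87 + DMKG. Of all rows tested 41.4% were called with DMKG, 61.0% with B87 + DMKG and 52.1% with Rita. The share was 58.9% with Nutlin-3 added to B87 + DMKG and 67.3% with Rita added. Runs were found by position, and those given here were picked after their values were seen. Rows in a run may share reads, so the counts within a run are a description.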
